A study of Mus musculus with 6 samples.

Results

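The collagen genes of mouse soleus are described here, in 3 libraries of wild-type control mice (WT) and 3 of mice whose genotype is labelled StarD7 mKO. StarD7 is a lipid transfer protein that carries phosphatidylcholine to mitochondria. Members were all genes whose name is Col, a number, the letter a and a number with nothing after it, which gave 44 of the 43074 genes in the tables. By textbook grouping, 11 were fibrillar, 8 were of basement membranes (the type IV chains and types XV and XVIII), and 25 were of other kinds. Soleus is a calf muscle rich in slow fibres. The labels give tissue and genotype only: how and in which cells Stard7 was deleted, and the strain, age and sex of the animals, are not given in the sources used here. The labels do not tie a library to an animal, so p-values measure the spread between these samples, which may be technical.

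Collagens are proteins of 3 chains wound into a triple helix, built from repeats that hold glycine at a fixed spacing. Fibrillar collagens, led by types I and III, form the tension-bearing fibres of the connective tissue around muscle fibres and in tendon. Type IV collagen forms the network of the basement membrane that wraps each muscle fibre and capillary, and type VI forms beaded filaments that link it to the fibrillar matrix. In muscle, fibroblasts and fibro-adipogenic progenitors make most fibrillar and type VI collagen, while several cell types make type IV. In bulk tissue, fewer cells of a type and less RNA per cell cannot be told apart.

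Values are TPM, transcript abundances that correct for gene length and sum to 1000000 in each library, so levels can be compared between genes. Over the genes that gave whole reads, reads recovered from TPM numbered 42928382 to 51287715 per library, of which 129662 to 222491 fell on the 41 collagens among those genes. Stard7 stood at 87.5, 95.4 and 94.99 TPM in WT and at 21.8, 21.3 and 34.6 TPM in mKO (log2 fold change −1.83, SE 0.16, adjusted p = 0.00585, limma). Leaving out WT replicate 2 ended that call (adjusted p = 0.0703), as did keeping genes of low values (adjusted p = 0.0858), though the log2 fold changes were then −1.81 and −1.83. The muscle fibre markers summed to 82217 to 88681 TPM in WT and 72467 to 73369 TPM in mKO. Mitochondrially encoded genes took 42.1% to 45.1% of TPM in WT and 46.8% to 48.9% in mKO.

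No collagen gene passed the test between genotypes. Of the 44, 30 reached 1 TPM in at least 3 libraries and were tested by limma on log2(TPM + 1) among 12301 genes. At an adjusted p under 0.05 limma called 0 of them, where it called 0.52% of all genes (0.0976% higher and 0.423% lower in mKO), and their adjusted p ran from 0.302 to 0.982. At an unadjusted p under 0.05 there were 5 (Col11a2, Col4a2, Col4a1, Col15a1 and Col6a6), all lower in mKO, which is 5 of 30 where 10.7% of all tested genes stood in either direction and 6.9% lower. Limma-voom on recovered reads also called 0, of 28. The groups did not overlap for 5 collagens, all lower in mKO (Col4a1, Col4a2, Col11a2, Col6a6 and Col7a1), and 10.3% of all tested genes were lower in mKO without overlap. No collagen was higher without overlap, where 5.67% of all tested genes were. The log2 fold change was below 0 for 23 of 30 collagens and for 55.1% of all tested genes. The median over the collagens was −0.19 and over all tested genes −0.01. After removal of the mitochondrially encoded genes and rescaling, the same 30 collagens had a median of −0.12 and the 12283 genes tested in both settings a median of 0.09. Rescaling also brought more genes past the filter, and over the 35 collagens then tested the median was −0.11. After it the groups overlapped for Col4a1, Col4a2 and Col7a1. Leaving out mKO replicate 1 brought the collagen median to −0.06, and leaving out mKO replicate 2 brought it to −0.34.

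**Figure D1:**
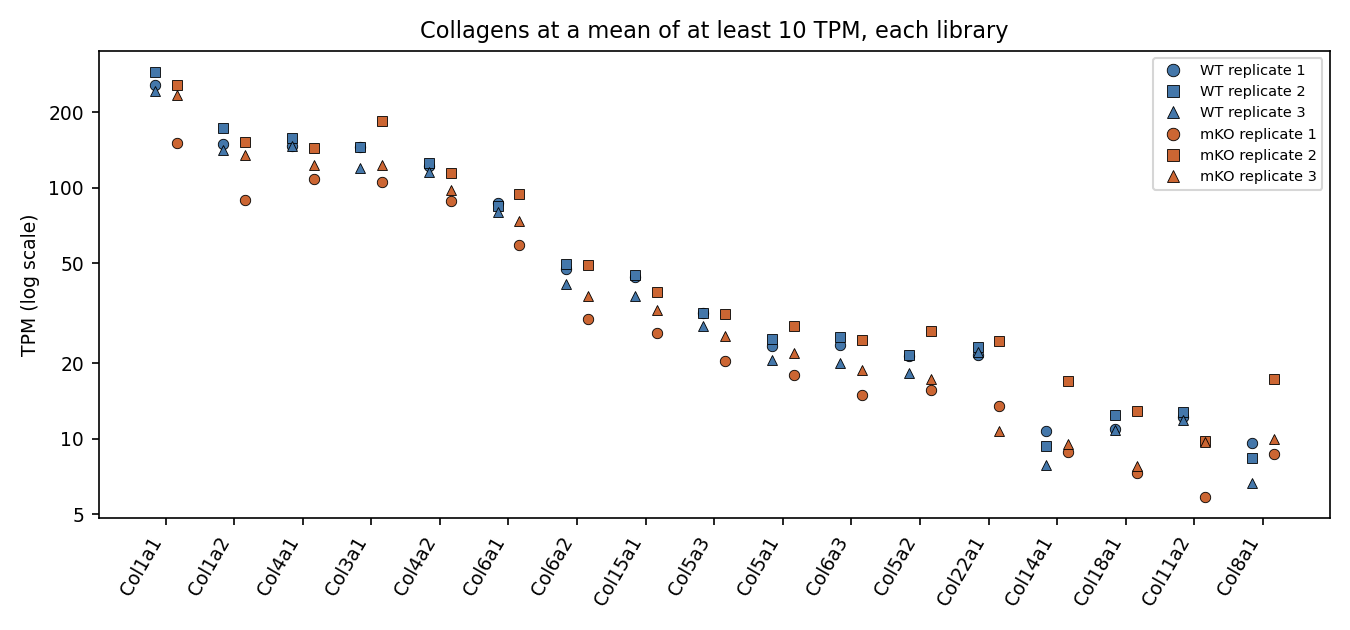
TPM on a log axis in each library for the 17 collagens at a mean of at least 10 TPM, in order of mean; colour gives the group and symbol the replicate. For most of them mKO replicate 1 is the lowest point and mKO replicate 2 the highest mKO point, near or above WT.

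The 6 most abundant collagens (Col1a1, Col1a2, Col4a1, Col3a1, Col4a2 and Col6a1) held 73.7% to 76.3% of all collagen TPM in each library. Collagens together took 0.0810% to 0.129% of all TPM. The 30 tested members spanned means of 1.11 to 239 TPM.

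Among fibrillar collagens the type I chains were the most abundant. Col1a1, the α1 chain of type I, stood at 256, 289.5 and 243 TPM in WT and at 151, 257 and 235 TPM in mKO. Only mKO replicate 1 lay far below WT, and the groups overlapped. The log2 fold change was −0.33 (SE 0.18, 95% interval −0.74 to 0.09, adjusted p = 0.588, limma). Col1a2, the α2 chain that completes the type I trimer, stood at 150.1, 172 and 142 TPM in WT and 89.7, 153 and 136 TPM in mKO. It had the same log2 fold change as Col1a1, −0.33 (SE 0.18, adjusted p = 0.588).

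Col3a1, the chain of type III collagen found beside type I in distensible tissues, stood at 145, 145 and 119.9 TPM in WT and at 106, 185 and 123 TPM in mKO. Its mKO libraries lay on both sides of WT, with a log2 fold change of −0.03 (SE 0.19, 95% interval −0.46 to 0.41, adjusted p = 0.982). The sign turned with mitochondrially encoded genes left out (0.09).

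Type V and XI chains sit inside type I and II fibrils and limit their width. Col5a1 stood at 23.4, 25.0 and 20.5 TPM in WT and 18.0, 28.2 and 21.9 TPM in mKO. Col5a2 stood at 21.3, 21.5 and 18.2 TPM in WT and 15.6, 26.9 and 17.2 TPM in mKO. For both, mKO replicate 2 was the highest and mKO replicate 1 the lowest of all libraries, and the log2 fold changes were −0.04 and −0.06, each above 0 with mitochondrially encoded genes left out. Col5a3, at 31.6, 31.6 and 28.0 TPM in WT and 20.4, 31.3 and 25.7 TPM in mKO, was at −0.25 on the log2 scale (adjusted p = 0.588).

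Col11a2, a type XI chain best known from cartilage, stood at 12.2, 12.7 and 11.8 TPM in WT and 5.85, 9.81 and 9.67 TPM in mKO. All mKO libraries were below all WT libraries, with no overlap. The mKO mean was 68.9% of the WT mean, and the log2 fold change was −0.52 (SE 0.17, 95% interval −0.90 to −0.14, adjusted p = 0.302). Its partner Col11a1 stood at 5.73 ± 0.174 (WT) against 4.29 ± 1.502 TPM (mKO) (SD, n = 3 each), and its fold change was −0.39 on the log2 scale (adjusted p = 0.522). Col24a1, a minor fibrillar chain, was at −0.12. All 9 tested fibrillar collagens thus lay below 0, and their median was −0.25. The defining chain of cartilage, Col2a1, was below the filter at 0.808 ± 0.204 and 0.665 ± 0.163 TPM. Col27a1 was below it too, at 0.753 ± 0.103 and 0.676 ± 0.116 TPM.

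**Figure D2:**
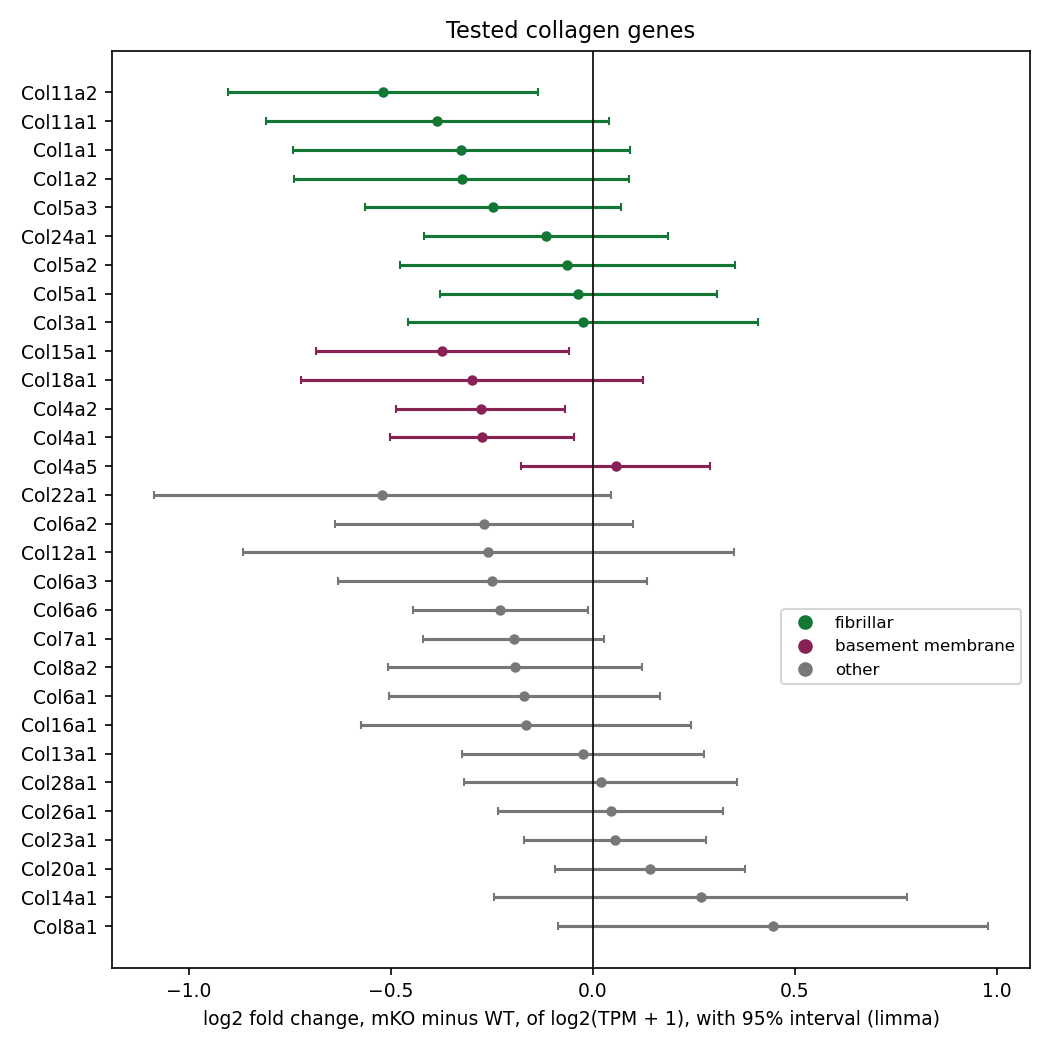
Log2 fold change (mKO minus WT on log2(TPM + 1)) and its 95% interval from limma for the 30 tested collagens, coloured by class. Intervals lie wholly below 0 for Col11a2, Col15a1, Col4a1, Col4a2 and Col6a6, before any adjustment for the number of genes tested.

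The basement membrane collagens were led by the type IV pair. Col4a1 stood at 147, 158 and 146 TPM in WT and at 108, 144 and 123 TPM in mKO. Col4a2 stood at 123, 126 and 116 TPM in WT and at 88.9, 115 and 97.6 TPM in mKO. On the TPM as deposited, every mKO library was below every WT library in both genes, with the highest mKO value just under the lowest WT value. The log2 fold changes were −0.27 (SE 0.10, 95% interval −0.50 to −0.05, adjusted p = 0.361) and −0.28 (SE 0.09, 95% interval −0.49 to −0.07, adjusted p = 0.309). Over 13 other settings they stayed below 0, between −0.38 and −0.16 for each, and passed the threshold in none.

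The pair lies head to head on chromosome 8, and by the RefSeq start sites (GRCm38.p6, an older build than the submitters' notes name) the first bases of both transcripts overlap. The mRNAs of these neighbours kept a near-fixed ratio in all libraries, as did those of Col1a1 and Col1a2, which are not next neighbours. Whether the shared start has a part in the ratio was not tested. The 22 bases that both starts share, chr8:11312805-11312826, are shown. They are written on the plus strand, that of Col4a2, and Col4a1 is read from the other strand.
Col4a1 and Col4a2: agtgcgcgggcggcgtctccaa

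Types XV and XVIII are proteoglycan collagens of basement membrane zones, and type XVIII is the source of endostatin. Col15a1 stood at 44.1, 44.8 and 36.9 TPM in WT and 26.3, 38.5 and 32.5 TPM in mKO. Only mKO replicate 2 reached the WT range, and the log2 fold change was −0.37 (SE 0.14, 95% interval −0.69 to −0.06, adjusted p = 0.37). Col18a1 stood at 10.9, 12.4 and 10.9 TPM in WT and 7.29, 12.9 and 7.81 TPM in mKO. Replicates 1 and 3 of mKO were below WT and replicate 2 was above it (−0.30, SE 0.18, adjusted p = 0.633). Col4a5, a chain of other type IV networks, had a log2 fold change of 0.06 at 2.99 ± 0.150 (WT) against 3.16 ± 0.449 TPM (mKO). Its head-to-head neighbour on the X chromosome, Col4a6, was near 0, at 0.0658 ± 0.0276 and 0.0617 ± 0.0556 TPM. Col4a3 and Col4a4, the kidney and lung chains, were below the filter, at WT means of 0.742 and 0.726 TPM and mKO means of 0.624 and 0.577 TPM. The class median was −0.28, with 4 of 5 tested members below 0.

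Of the other collagens, the type VI chains were the most abundant. Col6a1 stood at 86.7, 84.8 and 80.4 TPM in WT and at 59.2, 94.4 and 73.9 TPM in mKO. Col6a2 stood at 47.5, 49.6 and 41.5 TPM in WT and at 30.1, 49.3 and 37.0 TPM in mKO. Col6a3, the longest of these chains, stood at 23.7, 25.3 and 19.9 TPM in WT and at 15.0, 24.6 and 18.8 TPM in mKO. In each, mKO replicates 1 and 3 were below all WT libraries while replicate 2 was within or above them. Their log2 fold changes were −0.17, −0.27 and −0.25 (SE 0.15, 0.16 and 0.17), with adjusted p between 0.624 and 0.749. Col6a6, a minor chain, stood at 1.65 ± 0.102 (WT) against 1.26 ± 0.0545 TPM (mKO), with no overlap (−0.23, SE 0.09, adjusted p = 0.437). The remaining type VI chains, Col6a4 and Col6a5, were below 0.11 TPM in every library.

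FACIT collagens attach to the surface of fibrils. Col22a1, the FACIT collagen of the myotendinous junction, stood at 21.6, 23.3 and 22.1 TPM in WT and at 13.4, 24.4 and 10.7 TPM in mKO. The WT values were close together, whereas mKO replicates 1 and 3 stood well below them and replicate 2 above. The log2 fold change was −0.52 (SE 0.24, 95% interval −1.09 to 0.04, adjusted p = 0.508). Without mKO replicate 2 it was −0.84 and passed the threshold (adjusted p = 0.0388), when it was the only collagen of the 29 then tested to do so and 0.214% of all genes were called.

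Col14a1, a FACIT collagen of tendon and perimysium, stood at 10.7, 9.31 and 7.87 TPM in WT and at 8.86, 17.0 and 9.51 TPM in mKO. Replicate 2 of mKO alone was above WT (log2 fold change 0.27, SE 0.22, adjusted p = 0.737), and without it the value was −0.01. Col12a1, also of tendon and perimysium, had the largest mKO SD of the tested collagens on the log2(TPM + 1) scale (0.62, against 0.09 in WT), at 9.20 ± 0.667 (WT) against 8.04 ± 3.84 TPM (mKO) (−0.26, adjusted p = 0.799). Col16a1 (−0.17) and Col20a1 (0.14) did not pass either.

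Among the short-chain collagens, Col8a1, of vessel walls and subendothelial matrix, had the highest log2 fold change of the tested members. It stood at 9.63, 8.40 and 6.66 TPM in WT and at 8.68, 17.3 and 9.95 TPM in mKO. Replicates 2 and 3 of mKO were above WT and replicate 1 was within it (0.45, SE 0.23, 95% interval −0.09 to 0.98, adjusted p = 0.559). Its partner Col8a2 was at −0.19 (4.77 ± 0.254 and 4.11 ± 0.954 TPM). Col7a1, the anchoring fibril collagen of skin, stood at 2.39 ± 0.0356 (WT) against 1.97 ± 0.257 TPM (mKO) without overlap (−0.20, adjusted p = 0.542). Col26a1 (0.04) and Col28a1 (0.02) were near 0. The transmembrane collagens Col13a1, which acts at the neuromuscular junction (−0.02), and Col23a1 (0.05) were near 0 too, at 1.36 to 2.98 TPM in group means. The 16 tested other collagens had a median of −0.17, with 10 below 0.

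The 14 members below the filter stood between 0 and 1.27 TPM in every library and add little to any sum. Besides those given above they were Col9a1, Col9a2, Col9a3, Col10a1, Col17a1, Col19a1 and Col25a1. Col9a2, a chain of the cartilage FACIT collagen, was named after its values were seen. It stood at 0.754, 1.05 and 1.27 TPM in WT and at 0.379, 0.742 and 0.388 TPM in mKO, which was 54, 68 and 86 reads against 24, 50 and 24. The groups were apart only by the narrow gap between 0.742 TPM (mKO replicate 2) and 0.754 TPM (WT replicate 1), or 50 against 54 reads. Mitochondrially encoded genes took 46.8% and 43.5% of TPM in these libraries, so their order turns once values are rescaled without those genes. The share of all unfiltered genes without overlap was not counted. With no filter the log2 fold change of Col9a2 was −0.43 (adjusted p = 0.522, where 0.024% of all genes were called).

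**Figure D3:**
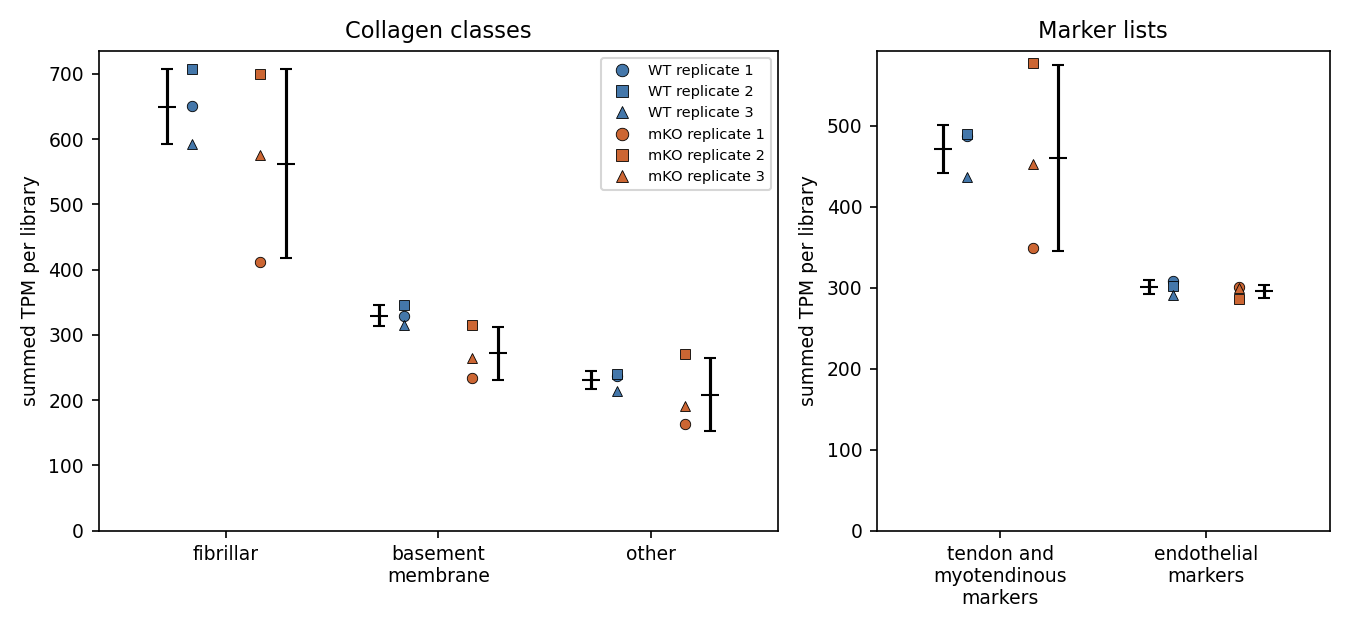
Summed TPM in each library for the 3 collagen classes (left) and for the tendon and endothelial marker lists (right), on axes from 0; bars give the mean and SD of 3 libraries. Collagens and tendon markers are lowest in mKO replicate 1 and vary more in mKO, while endothelial markers lie between 286 and 309 TPM in all 6 libraries.

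Summed over all members, collagens stood at 1217, 1293 and 1121 TPM in WT and at 809.5, 1286 and 1033 TPM in mKO. Group means were 1210.4 ± 86.0 TPM (WT) and 1043 ± 238 TPM (mKO, 86.1% of WT), a difference smaller than the spread within mKO (exact two-sided permutation p = 0.3, adjusted over 4 sums 0.533). Fibrillar collagens summed to 650.0 ± 57.7 (WT) against 563 ± 144 TPM (mKO) (exact p = 0.4). Basement membrane collagens summed to 329, 345 and 314 TPM in WT and 234, 315 and 265 TPM in mKO, so that only mKO replicate 2 reached the WT range (exact p = 0.2). The other collagens summed to 231 ± 13.9 (WT) against 208 ± 55.8 TPM (mKO) (exact p = 0.6), and without mKO replicate 1 the mKO mean was higher by 0.663 TPM. The smallest p that 3 against 3 can give is 0.1. As shares of collagen TPM the classes had similar means in both groups. The fibrillar share was 53.7% ± 0.980 in WT and 53.7% ± 2.51 in mKO, and the basement membrane share 27.3% ± 0.689 and 26.4% ± 2.31 (exact p = 1 and 0.5).

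Ratios between chains do not depend on how a library is scaled. Of 9 ratios, chosen after the values were seen, several were nearly fixed across all 6 libraries. Col1a1 over Col1a2 was 1.71, 1.68 and 1.71 in WT and 1.69, 1.68 and 1.73 in mKO, while Col1a1 itself ranged from 151 to 289.5 TPM. Col4a1 over Col4a2 lay between 1.20 and 1.26, and Col6a3 over Col6a2 between 0.480 and 0.511, in all libraries. Thus the chains in each of these pairs stood high or low in the same libraries. Col6a1 over Col6a2 (1.71 to 1.996), Col5a1 over Col5a2 (1.05 to 1.27) and Col11a1 over Col11a2 (0.427 to 0.598) varied more, and their groups overlapped.

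Other ratios varied. Col3a1 over Col1a1 was 0.567, 0.502 and 0.494 in WT and 0.699, 0.720 and 0.523 in mKO, with replicate 3 of mKO inside the WT range (exact permutation p = 0.2, adjusted over 9 ratios 0.6). Col8a1 over Col8a2 was 1.99, 1.68 and 1.48 in WT and 2.78, 3.44 and 2.38 in mKO, the only one of the 9 whose groups did not overlap. Its mean log2 ratio was higher in mKO by 0.73 (exact p = 0.1, the smallest this design allows, adjusted 0.6). Col4a1 over Col1a1, which sets the basement membrane beside the fibrils, was 0.574 ± 0.0280 in WT and 0.600 ± 0.102 in mKO (exact p = 0.9).

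**Figure D4:**
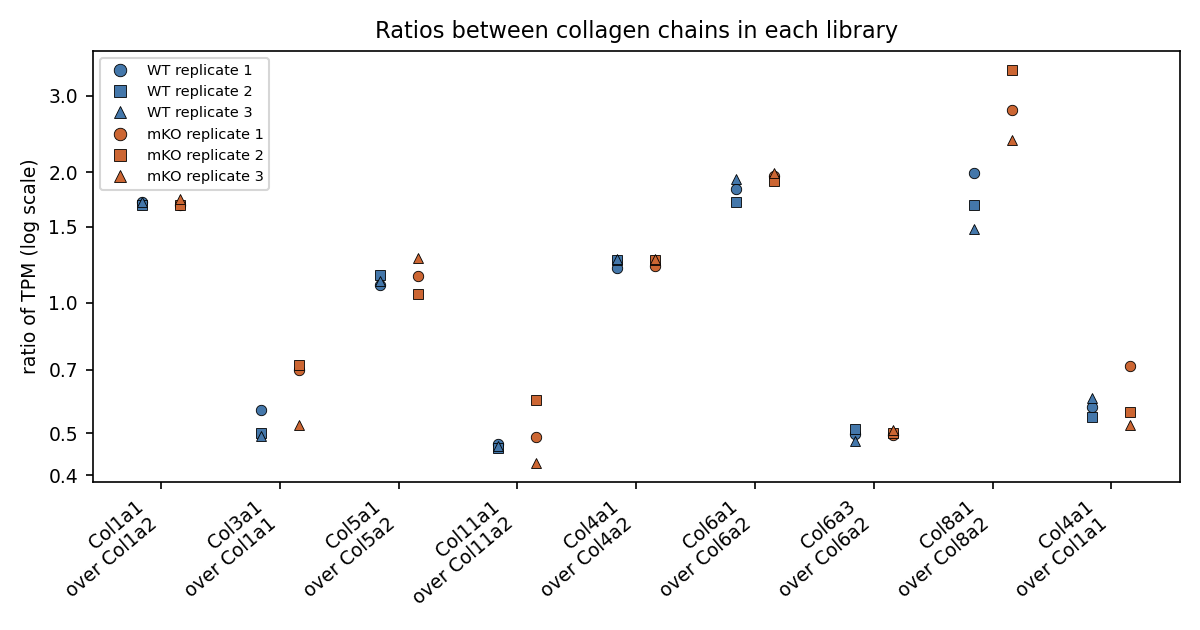
Ratio of TPM between 2 collagen chains in each library, on a log axis; colour gives the group and symbol the replicate. Points for Col1a1 over Col1a2, Col4a1 over Col4a2 and Col6a3 over Col6a2 lie almost on top of each other, and for Col8a1 over Col8a2 the mKO points lie above all WT points.

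The mKO libraries differed from each other in collagen level more than the WT libraries did. The SD of log2(TPM + 1) was larger in mKO than in WT for 27 of the 30 tested collagens and for 53.4% of all tested genes. Its median over collagens was 0.10 in WT and 0.32 in mKO, and over all tested genes 0.09 and 0.10. The exceptions were Col6a6, Col20a1 and Col23a1. Of the 6 libraries, mKO replicate 1 was the lowest for 22 of the 30 collagens, as it was for 27.8% of all tested genes, and mKO replicate 2 was the highest for 14, as it was for 30.1% of all genes. WT replicate 2 was the highest for 11, as it was for 24.9% of all tested genes. Relative to the WT mean, the collagen sum was 66.9% in mKO replicate 1, 106% in replicate 2 and 85.3% in replicate 3. The median deviation from the WT mean was −0.45, 0.10 and −0.19 on the log2 scale for collagens in these libraries, and −0.05, 0.04 and −0.03 for all tested genes. This spread was noticed in the data and has no test here.

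**Figure D5:**
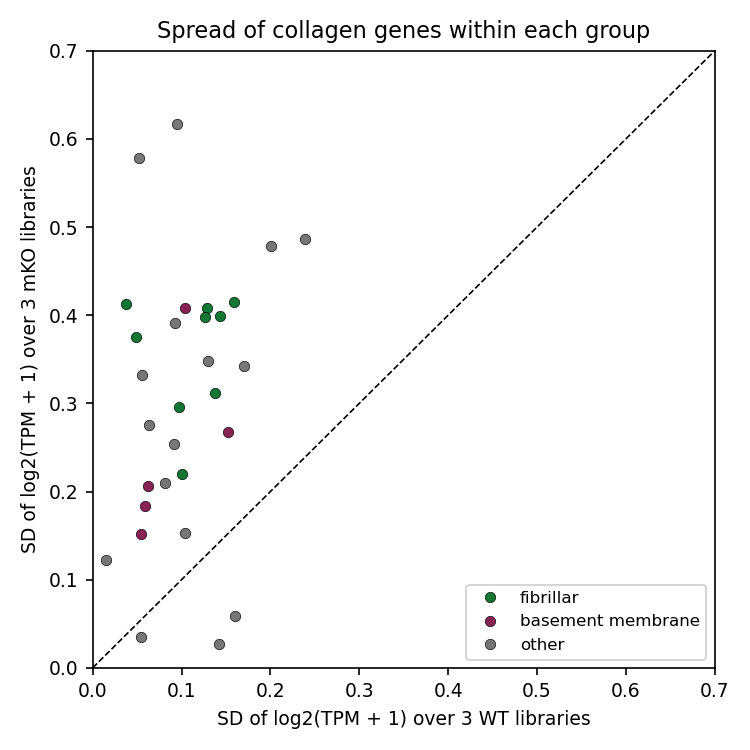
SD of log2(TPM + 1) over the 3 mKO libraries against that over the 3 WT libraries for the 30 tested collagens, coloured by class; the dashed line marks equal SDs. All but 3 points lie above the line.

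In the lists that follow, counts at an unadjusted p under 0.05 and counts below 0 stand beside 10.7% and 55.1% of all tested genes. Counts of called genes stand beside 0.52% of all tested genes, so 0 calls in lists this short say little about any list. Genes that build and cross-link collagen held no called member. Of 16 tested genes of folding and modification, 0 were higher and 0 lower at the threshold (1 at an unadjusted p under 0.05), with a median log2 fold change of −0.01. P4hb, a subunit of prolyl hydroxylase, stood at 139 ± 8.23 (WT) against 140.1 ± 6.31 TPM (mKO), and Serpinh1, the collagen chaperone HSP47, at 107 ± 8.62 and 105 ± 19.1 TPM. Of 13 genes of secretion, propeptide removal and cross-linking, 0 were called (1 unadjusted, median −0.05). Mia3, which loads collagen into transport carriers, stood at 41.6 ± 2.24 and 38.6 ± 1.64 TPM, and the coat protein gene Sec23a at 38.4 ± 0.797 and 38.7 ± 3.38 TPM. With mitochondrially encoded genes left out the medians were 0.10 and 0.05, beside 0.09 for all genes.

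Genes whose products bind, sense or degrade collagen held no called member either. Of 10 collagen-binding proteoglycans 0 were called (1 unadjusted, median 0.02). Fmod, fibromodulin of tendon, stood at 179 ± 16.8 (WT) against 146 ± 59.2 TPM (mKO), and Dcn, decorin, at 143 ± 6.56 and 144 ± 22.4 TPM. Fmod passed the threshold only without mKO replicate 3 (log2 fold change −0.67, adjusted p = 0.0447), when 94 of all 12194 tested genes did. Of 8 collagen receptors 0 were called (1 unadjusted, median −0.04), with Itgb1, integrin β1, at 158 ± 9.60 and 152 ± 14.0 TPM, and Adgrg1, a receptor of type III collagen, at 19.8 ± 2.74 and 16.3 ± 1.67 TPM. Of 9 genes of breakdown and its inhibitors 0 were called (1 unadjusted, median −0.06), with the inhibitor Timp2 at 65.4 ± 4.94 and 69.3 ± 11.9 TPM and the gelatinase Mmp2 at 66.6 ± 4.31 and 62.7 ± 13.3 TPM.

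Basement membrane partners had the lowest median of these lists, −0.14, with 11 of 12 below 0, 0 called and 3 at an unadjusted p under 0.05, beside 55.1% of all tested genes below 0 and 10.7% at such a p. With mitochondrially encoded genes left out the median was −0.03, beside 0.09 for all genes. Sparc, a matrix protein that binds collagen, stood at 379 ± 31.7 (WT) against 325 ± 63.7 TPM (mKO), and Dag1, dystroglycan, at 128 ± 1.51 and 128 ± 5.49 TPM. Of 15 genes of growth factor signals and fibrosis 0 were called (0 unadjusted, median −0.07), but without mKO replicate 2 there was 1, Postn (log2 fold change −0.85, adjusted p = 0.0189), named after its values were seen. Without that library 0.214% of all genes were called. Ccn2, a target of TGF-β, stood at 93.3 ± 11.4 and 84.1 ± 35.0 TPM, and Fn1, fibronectin, at 81.4 ± 4.82 and 81.7 ± 41.8 TPM. Both had a far larger SD in mKO than in WT.

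Marker lists of the cells that make collagen were read beside it; their part in the collagen values was not tested. Of 9 tested fibroblast and fibro-adipogenic markers all were above 0 (median 0.23, 0 called, 3 unadjusted, beside 55.1% of all tested genes below 0 and 10.7% at such a p), and the whole list of 10 summed to 842 to 945 TPM in WT and to 916, 1166 and 1008.5 TPM in mKO. Gsn made up most of that sum, at 592 ± 38.7 and 704 ± 75.0 TPM, and is made by other cells as well. Ly6a stood at 93.8 ± 4.08 and 96.2 ± 9.50 TPM. On the TPM as deposited, the list sum in mKO replicate 1, the library lowest in collagen, was within the WT range. With mitochondrially encoded genes left out, that sum was above all WT libraries. The list median was then 0.35, beside 0.09 for all genes. Tendon and myotendinous markers (10 tested, 7 below 0, median −0.13, 0 called, 1 unadjusted) summed to 488, 490.2 and 437 TPM in WT and to 349.7, 578 and 453 TPM in mKO. The order of the mKO libraries, lowest in replicate 1 and highest in replicate 2, was that of the collagen sum, and it was found in 11 of the 17 other lists, the fibroblast list included. The muscle fibre list was among the 11, though its mKO sums were close together, at 72467 to 73369 TPM. The share of all tested genes in that order was not counted. Thbs4 stood at 205 ± 17.5 and 201 ± 72.4 TPM, and Tppp3 at 85.7 ± 16.3 and 93.1 ± 16.04 TPM. The part of tendon tissue in the collagen values was not tested. Of the cartilage and bone markers only Sox9 passed the filter (7.57 ± 2.50 and 7.26 ± 2.69 TPM). The list of 10 summed to 5.26 to 11.2 TPM in all libraries, and Ibsp was listed at 0 in each.

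Other cell type markers held no called gene in any list. Endothelial markers (10 tested, median −0.02, or 0.09 with mitochondrially encoded genes left out, 1 unadjusted) summed to 292 to 309 TPM in WT and 286 to 301 TPM in mKO, with Cdh5 at 91.3 ± 1.13 and 85.3 ± 2.57 TPM and Pecam1 at 46.8 ± 0.982 and 47.6 ± 0.683 TPM. Pericyte and smooth muscle markers (9 tested, median −0.06, or 0.05 with those genes left out, 2 unadjusted) summed to 500.1 to 519 TPM in WT and 439 to 492 TPM in mKO, led by Rgs5 (295 ± 6.61 and 269 ± 12.02 TPM) and Abcc9 (77.2 ± 3.83 and 66.3 ± 5.54 TPM). On the TPM as deposited the sums of the groups did not overlap, but with mitochondrially encoded genes left out they overlapped. Of all tested genes, 10.3% were lower in mKO without overlap on the TPM as deposited. Pericytes also make type IV collagen, and their part in the values of Col4a1 and Col4a2 was not tested. Schwann cell markers (7 tested, median 0.02) summed to 87.2 to 123 TPM in WT and 91.7 to 122 TPM in mKO, led by Pmp22 (54.4 ± 8.37 and 60.01 ± 8.04 TPM). Adipocyte markers (8 tested, median −0.12) summed to 277 to 453 and 284 to 350.2 TPM, led by Fabp4 (136 ± 20.3 and 126 ± 4.73 TPM) and Cfd (127 ± 53.6 and 112 ± 27.5 TPM). Neither of these lists had a gene at an unadjusted p under 0.05.

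Macrophage markers (9 tested, 8 above 0, median 0.12, 0 unadjusted) summed to 140.4 to 164 TPM in WT and to 121, 217 and 173 TPM in mKO. Lyz2 stood at 67.8 ± 6.42 and 78.2 ± 24.8 TPM and C1qa at 21.8 ± 2.64 and 25.1 ± 8.04 TPM. Satellite cell markers (6 tested, median 0.09, 0 unadjusted) summed to 37.5 to 48.3 and 37.4 to 52.7 TPM, led by Myod1 (12.1 ± 3.79 and 17.2 ± 5.89 TPM) and Cdh15 (14.9 ± 1.58 and 14.3 ± 0.517 TPM). Muscle fibre markers (10 tested, median −0.12, or 0.0015 with mitochondrially encoded genes left out, 3 unadjusted) held 0 calls, led by Acta1 (39246 ± 1803 and 34379 ± 1053 TPM) and the fast troponin gene Tnnt3 (13106 ± 1147 and 8693 ± 1574 TPM, adjusted p = 0.116). Without mKO replicate 3 there were 2 calls, Tnnt3 (log2 fold change −0.75, adjusted p = 0.0147) and Ckm (−0.60, adjusted p = 0.0215), the latter named after its values were seen. Without that library 94 of all 12194 tested genes were called.

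By the order of protein-coding genes in RefSeq (GRCm38.p6), 8 pairs of collagen genes are next neighbours. They are Col4a1 with Col4a2, Col4a4 with Col4a3, Col4a6 with Col4a5, Col6a2 with Col6a1, Col6a6 with Col6a5, Col6a5 with Col6a4, Col3a1 with Col5a2, and Col9a1 with Col19a1. Neighbours did not always stand at like levels: Col4a5 had group means of 2.99 and 3.16 TPM where Col4a6 was near 0, and Col6a6 of 1.65 and 1.26 TPM where Col6a5 was near 0.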

How the data were processed

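RNA-seq of poly(A) RNA gave 6 libraries of soleus, 3 per genotype. Each library came as a table of TPM that the authors made and deposited, per the file headers, on the GRCm39 genome, per the submitters' processing notes. The library kit keeps strand, per the labels' protocols. The aligner, the counter and its strand setting are not given in the sources used here. The 12301 genes that reached 1 TPM in 3 or more libraries were tested on log2(TPM + 1) with limma 3.58.1 in R 4.3.3 (moderated test with a mean trend, two-sided, Benjamini-Hochberg, threshold 0.05), so a fold change understates that of low genes. The tests were tried on simulated data. Sums, shares and ratios were compared by exact two-sided permutation tests. Reads were recovered from TPM and GENCODE M21 exon lengths, of an older build than those notes name. They came out whole within 0.05 reads in all 6 libraries for 93.13% of 22729 genes, and their number covers counting error only. Of the recovered values above 0, 58.56% were even, and whether a value counts independent fragments was not tested. Values in each library were given for members at a mean of at least 10 TPM, members past the threshold, and those whose groups did not overlap at a log2 change of 0.5 or more; others by group means. In other lists the 2 most abundant tested genes were named, except 1 that is not reported here. The members and lists were chosen with earlier results of these data known, and the ratios after their values were seen.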

Additional observations from a re-analysis of the deposited data

How the results depend on the processing

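With 3 libraries a group, 1 library decided much. The count of collagens past the threshold was 0 in each of 13 other settings except without mKO replicate 2, where it was 1 (Col22a1), so leaving out 1 library gave 0 to 1, all lower in mKO. Leaving out 1 library moved the median log2 fold change from −0.34 to −0.06 for all collagens, from −0.39 to −0.09 for fibrillar, from −0.38 to −0.18 for basement membrane and from −0.27 to −0.0053 for other collagens. It moved the difference of summed TPM from −289 to −51.0 for all, from −156 to −12.2 for fibrillar, from −79.95 to −39.5 for basement membrane and from −53.2 to 0.663 for other collagens. In each of these ranges the lowest value came without mKO replicate 2 and the highest without mKO replicate 1. The cause was not tested.

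The log2 fold change took both signs over the libraries left out for Col12a1 (−0.58 to 0.041), Col13a1 (−0.12 to 0.086), Col14a1 (−0.0079 to 0.43), Col23a1 (−0.018 to 0.12), Col26a1 (−0.0040 to 0.13), Col28a1 (−0.028 to 0.095), Col3a1 (−0.26 to 0.14), Col4a5 (−0.031 to 0.10), Col5a1 (−0.20 to 0.11) and Col5a2 (−0.29 to 0.084). So it did for C1qa (−0.071 to 0.38), Ccn2 (−0.53 to 0.061), Cdh15 (−0.12 to 0.025), Cfd (−0.38 to 0.19), Dag1 (−0.028 to 0.028), Dcn (−0.078 to 0.13), Fabp4 (−0.20 to 0.011), Fn1 (−0.49 to 0.12), Ly6a (−0.027 to 0.11), Lyz2 (−0.057 to 0.42), Mmp2 (−0.26 to 0.044), P4hb (−0.039 to 0.045), Sec23a (−0.059 to 0.048), Serpinh1 (−0.18 to 0.076), Sox9 (−0.29 to 0.20), Thbs4 (−0.35 to 0.16), Timp2 (−0.043 to 0.20) and Tppp3 (−0.025 to 0.25). The log2 ratio did so for Col1a1 over Col1a2 (−0.013 to 0.0076), Col5a1 over Col5a2 (−0.040 to 0.10), Col11a1 over Col11a2 (−0.028 to 0.21), Col4a1 over Col4a2 (−0.019 to 0.021), Col6a3 over Col6a2 (−0.0097 to 0.035) and Col4a1 over Col1a1 (−0.083 to 0.14). None of these had passed a threshold. The leave-outs of ratios and the settings of the other lists were chosen after seeing the data.

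Without the mitochondrially encoded genes the sign turned for Col3a1 (0.092), Col5a1 (0.078), Col13a1 (0.050), Col5a2 (0.049), Dcn (0.12), Dag1 (0.11), Serpinh1 (0.081), Cdh15 (0.065), Itgb1 (0.064), Sox9 (0.032), Thbs4 (0.032), Fabp4 (0.023), Cdh5 (0.020), Mmp2 (0.012), Fn1 (0.012) and Mia3 (0.012). Over the 12283 genes tested in both settings, the median moved from −0.01 to 0.09. Median-of-ratios scaling turned Dag1 (0.0049) and Dcn (0.011), as did limma-voom on recovered reads (0.010 and 0.016).

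Over all genes, limma called 64, against 41 without mitochondrially encoded genes, 6 with no filter and 21 with a replicate block. Without WT replicate 1, 2 or 3 it called 13, 4 and 12, and without mKO replicate 1, 2 or 3 it called 13, 26 and 94. The replicate block left the collagen median at −0.19 and called 0 collagens (smallest adjusted p 0.226). The labels number the libraries of both groups alike. The deviations of same-numbered libraries correlated at 0.0950, 0.0474 and 0.131 over genes, and those of other pairs at −0.0929 to 0.00064. Each library thus correlated best with its own number. Deviations within a group sum to 0 for each gene, so a positive value for 1 pair lowers those of other pairs. The contrast between same-numbered and other pairs is therefore partly built in. The main test and the permutation tests took no account of the number, and whether same-numbered libraries share more than that was not tested.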
